A study of Homo sapiens with 23 samples.

Results

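The OAS family comprises the interferon-induced genes OAS1, OAS2, OAS3 and OASL, and these 4 genes of the 21658 in the table were examined in parental and prexasertib-resistant ovarian cancer cell lines. The members were chosen by name with the results of these libraries known, because OAS3 was higher in the resistant libraries of all 4 lines. That comparison therefore describes the members and tests nothing about them: their resistant and parental values, differences and standard errors are given without a p-value. Another 81 genes of the interferon and 2-5A pathways, which are not members, were tested.

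Kuramochi, OVSAHO, OV-90 and EFO-21 are established ovarian cancer lines, and each was profiled as the parental line and as a resistant derivative obtained by long exposure to rising concentrations of prexasertib, an inhibitor of the checkpoint kinase CHK1. Stranded mRNA libraries from total RNA gave 23 columns of values, with 3 libraries in each of 7 groups and 2 in the parental OV-90 group. Each resistant derivative comes from a single line, and whether drug was present at harvest is not given in the sources used here. Libraries are named below by the number that their columns carry, from 2 to 24. The labels call the libraries of a group biological replicates and do not say whether these came from separate derivations of resistance. Errors and p-values are therefore read as the spread between cultures, and not between independent derivations. Values are on the log2 scale as deposited, and the sequencing depth is unknown because no read counts were used here. They are not divided by gene length, so a level, or a sum over a list of markers, is compared between lines and states. The marker with the highest deposited value in a list is named without regard to gene length.

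When cells meet double-stranded RNA, the OAS1, OAS2 and OAS3 proteins join ATP into short 2′-5′-linked oligoadenylates (2-5A). These act as second messengers of the antiviral response, which slows protein synthesis. OASL carries the family fold with ubiquitin-like repeats but does not make 2-5A, and it is known for enhancing signalling by the RNA sensor RIG-I. All 4 genes are induced by type I interferon through a complex that contains STAT2 and IRF9 and binds interferon-stimulated response elements in promoters.

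OAS1, OAS3 and OAS2 lie side by side in that order on the plus strand of chromosome 12 (GRCh37). OAS1 (Gene ID 4938) spans chr12:113343661-113371024, OAS3 (4940) chr12:113375856-113414265 and OAS2 (4939) chr12:113416200-113449528. Their starts are 32.2 kb and 40.3 kb apart. OASL (8638) lies 8060 kb further along the same chromosome on the minus strand, at chr12:121455566-121477049.

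RefSeq promoter windows (GRCh38.p14, 250 bases before to 50 after the start) matched 2 of the 4 members, OAS1 and OAS3, and are shown because these genes share a locus and yet differed in opposite directions in 2 lines. OAS2 and OASL had no entry. Both windows are on the plus strand, OAS1 at chr12:112906712-112907011 and OAS3 at chr12:112938224-112938523. Capitals mark matches to the core of the interferon-stimulated response element (GAAA, any 2 bases and GAAA again), the gamma-activated site TTCNNNGAA, or GAAANGAAA, searched on both strands.
OAS1: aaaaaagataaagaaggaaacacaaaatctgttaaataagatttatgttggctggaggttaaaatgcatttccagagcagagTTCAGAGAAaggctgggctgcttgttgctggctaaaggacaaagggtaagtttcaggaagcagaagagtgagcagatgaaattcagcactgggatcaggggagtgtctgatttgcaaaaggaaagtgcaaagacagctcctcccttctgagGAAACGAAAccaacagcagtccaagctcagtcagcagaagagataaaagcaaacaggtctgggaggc
OAS3: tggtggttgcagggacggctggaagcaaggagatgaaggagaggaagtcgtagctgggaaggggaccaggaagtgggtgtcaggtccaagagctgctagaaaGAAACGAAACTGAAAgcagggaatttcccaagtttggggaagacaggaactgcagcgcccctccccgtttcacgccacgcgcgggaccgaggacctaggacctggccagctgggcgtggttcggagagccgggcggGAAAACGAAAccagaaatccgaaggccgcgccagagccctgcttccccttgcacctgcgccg

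The OAS3 window held the response element core 2 times, with first bases at -143 and -12 from the start, and no TTCNNNGAA. The OAS1 window held no response element core and 1 TTCNNNGAA at -168. GAAANGAAA, with 1 base fewer between the repeats, was added after the sequences were read: it occurs at -17 in OAS1 and at -148 in OAS3, where it overlaps the upstream core. Of 35116 promoter windows of all genes, 3.57% held the response element core, 0.259% held it at least 2 times, 7.66% held TTCNNNGAA and 3.12% held GAAANGAAA. Counted by gene, over all windows of a gene, 4.38% of 27305 genes held the core, 9.38% TTCNNNGAA and 3.87% GAAANGAAA. Among the other interferon-stimulated genes listed here, 37 had a window, and 27 of these genes held the core, 10 TTCNNNGAA and 16 GAAANGAAA. A match describes the letters of a window and does not show a bound site.

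Before the members were compared, the libraries were checked. Profiles of the 2 parental OV-90 libraries correlated less closely (Pearson r = 0.9524 across genes) than any pair of libraries within the other groups, where the lowest r was 0.9711, and library 3 was almost as close to a resistant OV-90 library (r = 0.9493). OV-90 values of the members are therefore also given without each of these libraries, and those of other genes only in part. With 1 parental OV-90 library left, a resistant minus parental fit takes its spread from the resistant libraries of the line. Calls from such fits therefore leave out the difference between the 2 parental libraries. The 10th percentile of the values of a library lay between 1.70 and 1.87, and a value at or below that of its own library is called low, because a difference between low values is not a measured fold change. Values of exactly 0 were listed for 291 to 560 genes in each resistant Kuramochi library and each EFO-21 library, and for 0 genes in every other library. Parental Kuramochi therefore held no value of 0 where resistant Kuramochi did, and no OAS gene was listed at 0 in any library.

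The labels were also checked against cell type markers. Of 7 markers of ovarian carcinoma epithelium, 0 were low in every library of parental Kuramochi or OVSAHO, and 1 was in parental OV-90 (MUC16) and 1 in parental EFO-21 (WT1). KRT18 had the highest deposited value in parental Kuramochi (mean 12.31) and EFO-21 (11.39), KRT7 in OVSAHO (11.40) and EPCAM in OV-90 (12.30). PAX8 and WT1 were at 2.10 and 1.87 in parental OV-90, against 9.37 and 7.96 in parental Kuramochi. In the resistant libraries, by limma at an adjusted p under 0.05 and at least 2-fold, 4 of the 7 markers fell in Kuramochi (EPCAM by 3.79, to 2.69, with MUC16, WT1 and KRT18) and 3 in OVSAHO (MUC16 by 4.58, EPCAM by 3.01 and KRT7 by 1.32). None reached 2-fold in OV-90 or EFO-21. At an adjusted p under 0.05 and under 2-fold, KRT18 and KRT8 were lower in both of these lines (KRT18 by 0.75 in EFO-21, adjusted p = 8.58e-05, and by 0.69 in OV-90, adjusted p = 0.0278), and EPCAM, KRT7 and WT1 were lower in EFO-21, WT1 within the low range. WT1 reached 2-fold there without library 10, 11 or 23, and KRT7 without library 11.

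Markers of other cell types were present at some level. Summed over the 4 fibroblast markers, the log2 level was 12.79 in parental and 12.11 in resistant OV-90 (highest value LUM), 5.56 in parental and 7.58 in resistant OVSAHO, and between 5.52 and 6.09 in Kuramochi and EFO-21. Of these markers LUM and DCN rose and COL1A2 fell in OVSAHO, LUM and PDGFRB rose and DCN fell in Kuramochi, COL1A2 rose in EFO-21, and DCN, LUM and COL1A2 were low in parental EFO-21. For the 3 endothelial markers the summed level was 9.85 and 10.01 in parental and resistant EFO-21 (highest value CDH5), 5.44 and 7.66 in Kuramochi, 6.43 and 3.99 in OV-90 and 2.92 and 3.49 in OVSAHO. CDH5 rose and VWF fell in Kuramochi, CDH5 rose within the low range in OVSAHO, and PECAM1 fell in OV-90. Some of these calls changed when 1 library was left out. In OV-90, PTPRC, CD14, VWF and COL1A2 also fell and CDH5 rose without library 3, and LUM fell without library 2. PTPRC also fell in Kuramochi without library 5 and in EFO-21 without library 22. PDGFRB no longer passed in Kuramochi without library 6, nor COL1A2 in EFO-21 without library 11 or 23, nor the fall of CD3E in OVSAHO (adjusted p = 0.045) without library 7, 8, 19, 20 or 21. The 4 leukocyte markers summed to between 5.21 and 7.40 in all groups, with CD14 the highest value in each group except resistant EFO-21. PTPRC was low in the 3 resistant OVSAHO libraries and CD3E in the 3 resistant libraries of both Kuramochi and OVSAHO and in the 3 parental EFO-21 libraries. In bulk libraries, fewer cells of a type and less RNA per cell cannot be told apart, and the part of these marker differences in the values of the OAS genes was not tested.

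**Figure D1:**
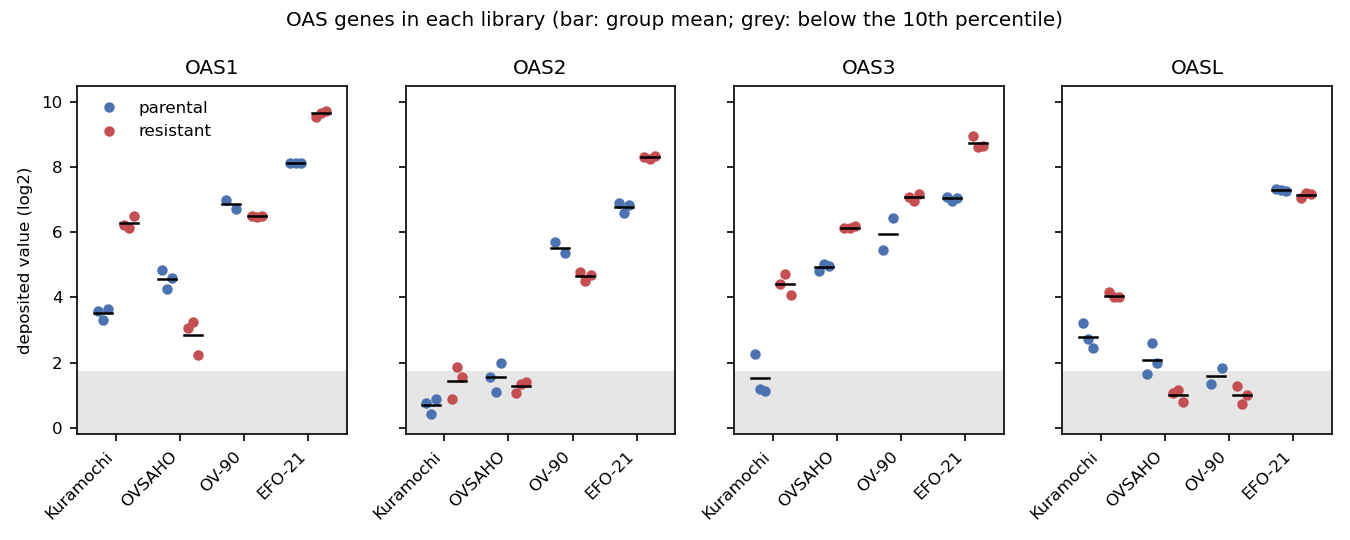
Deposited log2 value of OAS1, OAS2, OAS3 and OASL (vertical axis) in each of the 23 libraries, by cell line (horizontal axis), with parental libraries in blue, resistant libraries in red, a bar at each group mean and the low range in grey. The resistant OAS3 points lie above the parental points in all 4 lines, while the resistant OAS1 points lie above in Kuramochi and EFO-21 and below in OVSAHO and OV-90.

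Across the 4 members and 4 lines, 16 pairs of groups could be compared. The resistant libraries all lay above the parental libraries in 8 of them, all below in 6, and overlapped in 2. In Kuramochi 3 members lay higher and 0 lower, where 28.7% of all genes lay higher and 30.5% lower. In EFO-21 it was 3 higher and 1 lower, beside 30.4% and 29.3% of all genes. In OVSAHO 1 member lay higher and 2 lower, beside 24.6% and 23.7%, and in OV-90 1 higher and 3 lower, beside 32.0% and 37.1%. Nothing is read from these counts, because the members were selected on this comparison.

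OAS3, the largest enzyme of the family and the member that led to the choice of the family, differed most in Kuramochi. Its value there was 2.25, 1.19 and 1.14 in parental libraries 4, 5 and 6, against 4.40, 4.72 and 4.08 in resistant libraries 16, 17 and 18. The difference was 2.88 ± 0.37 (SE), and because 2 of the 3 parental libraries were low, the fold that it corresponds to is uncertain. In EFO-21, OAS3 was 7.10, 6.97 and 7.07 in parental libraries 10 to 12 and 8.96, 8.64 and 8.66 in resistant libraries 22 to 24, a difference of 1.71 ± 0.10 or 3.27-fold. The groups were clear of each other in both lines.

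OAS3 differed by less in the other lines. In OVSAHO it was 4.80, 5.04 and 4.97 in parental libraries 7 to 9 and 6.12, 6.13 and 6.19 in resistant libraries 19 to 21, a difference of 1.21 ± 0.10 or 2.31-fold. In OV-90 it was 5.46 and 6.44 in parental libraries 2 and 3, and 7.10, 6.98 and 7.18 in resistant libraries 13 to 15. The OV-90 difference of 1.14 ± 0.31 depended on the parental library: without library 2 it was 0.64, and without library 3 it was 1.63. Both parental libraries lay below the 3 resistant ones.

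OAS1, which makes 2-5A and is the smallest enzyme of the family, went in opposite directions between lines. In Kuramochi it was 3.58, 3.31 and 3.65 in the parental and 6.22, 6.15 and 6.49 in the resistant libraries, a difference of 2.77 ± 0.18 or 6.83-fold. In EFO-21 it was 8.14, 8.13 and 8.14 against 9.56, 9.68 and 9.74, a difference of 1.52 ± 0.05 or 2.88-fold. The 3 parental EFO-21 libraries agreed to 0.01 (SD), the closest of any group for this gene.

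In OVSAHO, OAS1 was instead lower in the resistant libraries, at 3.06, 3.24 and 2.24, than in the parental libraries, at 4.84, 4.27 and 4.59. The difference was -1.72 ± 0.31, and library 21 was the lowest of the 3 resistant libraries. In OV-90 it was 7.0 and 6.73 in the parental and 6.49, 6.48 and 6.5 in the resistant libraries. That difference of -0.38 ± 0.12 became -0.25 without library 2 and -0.52 without library 3.

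OAS2, a 2-5A synthetase encoded downstream of OAS3, was measured above the low range in OV-90 and EFO-21. In EFO-21 it was 6.91, 6.61 and 6.83 in the parental and 8.31, 8.27 and 8.35 in the resistant libraries, a difference of 1.52 ± 0.08 or 2.88-fold. In OV-90 it was 5.70 and 5.36 in the parental and 4.78, 4.52 and 4.68 in the resistant libraries, a difference of -0.87 ± 0.20, and of -0.70 and -1.04 without libraries 2 and 3. In these lines the groups did not overlap, and the direction was the same as that of OAS1.

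In Kuramochi, OAS2 was 0.75, 0.42 and 0.89 in the parental and 0.87, 1.85 and 1.54 in the resistant libraries, 5 of the 6 being low. In OVSAHO it was 1.54, 1.09 and 2.00 in the parental and 1.05, 1.34 and 1.40 in the resistant libraries, again with 5 of 6 low. The groups overlapped in both lines, and no fold is given. The large OAS1 and OAS3 differences in Kuramochi were thus measured at a locus where OAS2 stayed at or near the low range.

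OASL, the member without synthetase activity, lay higher in the resistant libraries of Kuramochi alone. There it was 3.23, 2.71 and 2.46 in the parental and 4.17, 4.0 and 4.0 in the resistant libraries, a difference of 1.26 ± 0.25 or 2.39-fold. In EFO-21, where OASL was highest, it was 7.32, 7.30 and 7.28 against 7.07, 7.22 and 7.18, a difference of -0.14 ± 0.05 or 1.10-fold. In that line OAS1, OAS2 and OAS3 were all at least 2.88-fold higher, so the distant member did not move with the 3 members of the cluster.

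In OVSAHO, OASL was 1.65, 2.61 and 1.98 in the parental and 1.06, 1.15 and 0.79 in the resistant libraries, and in OV-90 it was 1.33 and 1.83 against 1.27, 0.73 and 1.01. All 6 resistant libraries of these lines were low. The differences of -1.08 ± 0.28 in OVSAHO and -0.58 ± 0.26 in OV-90 are therefore not measured folds, and the second became -0.83 without library 2 and -0.33 without library 3.

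Differences between lines were not used to choose the family, but the parental and resistant OAS3 values were, so the levels of OAS3 are described and those of OAS1, OAS2 and OASL were tested. Pairs of lines were compared with limma over the 11 parental libraries, and a pair counted as different at an adjusted p under 0.05 and a difference of at least 2-fold. Across all genes 44.7% of such comparisons passed, so lines differ widely. Of 6 pairs, OAS1 passed in 6, OAS2 in 5 and OASL in 4. OAS1 and OAS3 were ordered alike: Kuramochi lowest (means 3.51 ± 0.18 and 1.53 ± 0.63, SD, n = 3), then OVSAHO (4.57 ± 0.29 and 4.94 ± 0.12), OV-90 (6.87 ± 0.19 and 5.95 ± 0.70, n = 2) and EFO-21 (8.13 ± 0.01 and 7.05 ± 0.07).

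The OAS3 level of OV-90 exceeded that of OVSAHO by 1.01 ± 0.36 (SE), or 0.52 without library 3, and that of EFO-21 exceeded OV-90 by 1.10 ± 0.36, or 0.60 without library 2. The 2 OV-90 libraries lay between the libraries of these 2 lines. The step from Kuramochi to OVSAHO was 3.41 ± 0.32 for OAS3. For OAS1 it was 1.05 ± 0.16 (adjusted p = 0.000242) and fell under 2-fold without library 5 (0.95) or library 7 (0.92).

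OAS2 followed the same order of parental lines. EFO-21 (6.79 ± 0.16) exceeded OV-90 (5.53 ± 0.24, n = 2) by 1.25 ± 0.29 (adjusted p = 0.00332), and OV-90 exceeded OVSAHO (1.54 ± 0.45) by 3.99 ± 0.29 (adjusted p = 9.83e-07). OVSAHO, with 2 of 3 libraries low, exceeded Kuramochi (0.69 ± 0.24), with 3 of 3 low, by 0.86 ± 0.26 (adjusted p = 0.0145), under 2-fold. That pair passed without library 8 (1.08, adjusted p = 0.00459). OASL was different in that 1 line stood apart: parental EFO-21, at 7.30 ± 0.02, was 22.7-fold above Kuramochi (2.80 ± 0.40, adjusted p = 4.27e-07). OVSAHO (2.08 ± 0.49) did not pass against Kuramochi (adjusted p = 0.0515) or OV-90 (1.58 ± 0.36, adjusted p = 0.205). The OASL difference of 1.22 ± 0.33 between Kuramochi and OV-90 (adjusted p = 0.00773) fell under 2-fold without library 2 (0.96) and just under it without library 4. OASL was low in 1 of 2 parental OV-90 libraries and 1 of 3 parental OVSAHO libraries. The folds of OASL pairs with these lines, which count among the 4 that passed, are therefore uncertain.

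Over the 12 resistant libraries 44.2% of all comparisons of lines passed, and 5 of 6 did for each of OAS1, OAS2 and OASL. EFO-21 was again the highest line for each member. Resistant OAS1 was 9.66 ± 0.09 (SD) in EFO-21, 6.49 ± 0.01 in OV-90, 6.28 ± 0.18 in Kuramochi and 2.85 ± 0.53 in OVSAHO. Kuramochi was the lowest parental line for this gene, and no test compared the order of the lines between states. The resistant Kuramochi line was not told apart from OV-90 (difference 0.20 ± 0.21 SE, adjusted p = 0.391). It stood 10.8-fold above OVSAHO (adjusted p = 2.87e-08). Among resistant lines OAS1 thus spanned 6.81 on the log2 scale from OVSAHO to EFO-21 (adjusted p = 9.08e-11), against 4.62 from Kuramochi to EFO-21 among parental lines.

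For OAS3 the order of the lines was the same in resistant as in parental libraries. Its resistant means were 4.40 ± 0.32 (SD) in Kuramochi, 6.15 ± 0.04 in OVSAHO, 7.09 ± 0.10 in OV-90 and 8.76 ± 0.18 in EFO-21. The smallest step was that of 0.94 ± 0.14 (SE) from OVSAHO to OV-90. Resistant OAS2 was 8.31 ± 0.04 in EFO-21 and 4.66 ± 0.13 in OV-90, and its Kuramochi and OVSAHO means of 1.42 and 1.26 did not differ beyond their spread (adjusted p = 0.534). Resistant OASL was 7.16 ± 0.08 in EFO-21 and 4.06 ± 0.10 in Kuramochi, and was low in OV-90 and OVSAHO (both 1.0, adjusted p = 0.983).

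The partners of the 2-5A pathway were tested next. A listed gene rose or fell here if its difference was at least 2-fold and its limma p, adjusted over all genes, was under 0.05. By that rule 11.8% of all genes rose and 10.6% fell in resistant Kuramochi, 3.93% and 3.83% in OVSAHO, 9.5% and 6.56% in OV-90, and 7.11% and 7.15% in EFO-21. The OV-90 shares rest on 2058 and 1420 genes, against 3396 and 2579 without library 3, and between 181 and 263 and between 128 and 162 without any 1 resistant library. Without library 2, 937 fell. At an unadjusted p under 0.05 by limma, with no fold threshold, 5867 of the 21658 genes were higher and 5939 lower in Kuramochi, 4953 and 4636 in OVSAHO, 5406 and 5595 in OV-90, and 6195 and 5844 in EFO-21. Of the 5 partners, 1 rose in Kuramochi, 1 in OV-90 and 0 in OVSAHO or EFO-21, and 0 fell in any line. At an unadjusted p under 0.05, 4 were higher in Kuramochi, 1 in OVSAHO, 3 in OV-90 and 0 in EFO-21, and 0 were lower. The median difference of the 5 was 0.60 in Kuramochi and 0.61 in OV-90, with 5 above 0 in both lines, and 0.10 in OVSAHO and 0.12 in EFO-21, beside -0.02, -0.065, 0.00 and 0.01 over all genes. ENPP1, a nucleotide pyrophosphatase, rose from 4.38 to 5.47 in Kuramochi (1.09 ± 0.19, adjusted p = 0.00458) but was under 2-fold without library 6 (0.96).

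PDE12, a phosphodiesterase that degrades 2-5A, rose from 6.02 to 7.05 in OV-90 (1.03 ± 0.15, adjusted p = 0.0162), a call lost without any 1 of libraries 3, 13, 14 and 15. It differed by 0.60, 0.10 and 0.22 in Kuramochi, OVSAHO and EFO-21, with adjusted p of 0.00453, 0.256 and 0.216. ABCE1, which also serves in ribosome recycling, differed by -0.21 to 0.69, with adjusted p from 0.0566 to 0.366. Its OV-90 difference of 0.69 (adjusted p = 0.0609) was 1.02 without library 3 and 0.35 without library 2. AKAP7, whose phosphoesterase domain can cleave 2-5A, differed by -0.20 to 0.41, with adjusted p from 0.0853 to 0.957.

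**Figure D2:**
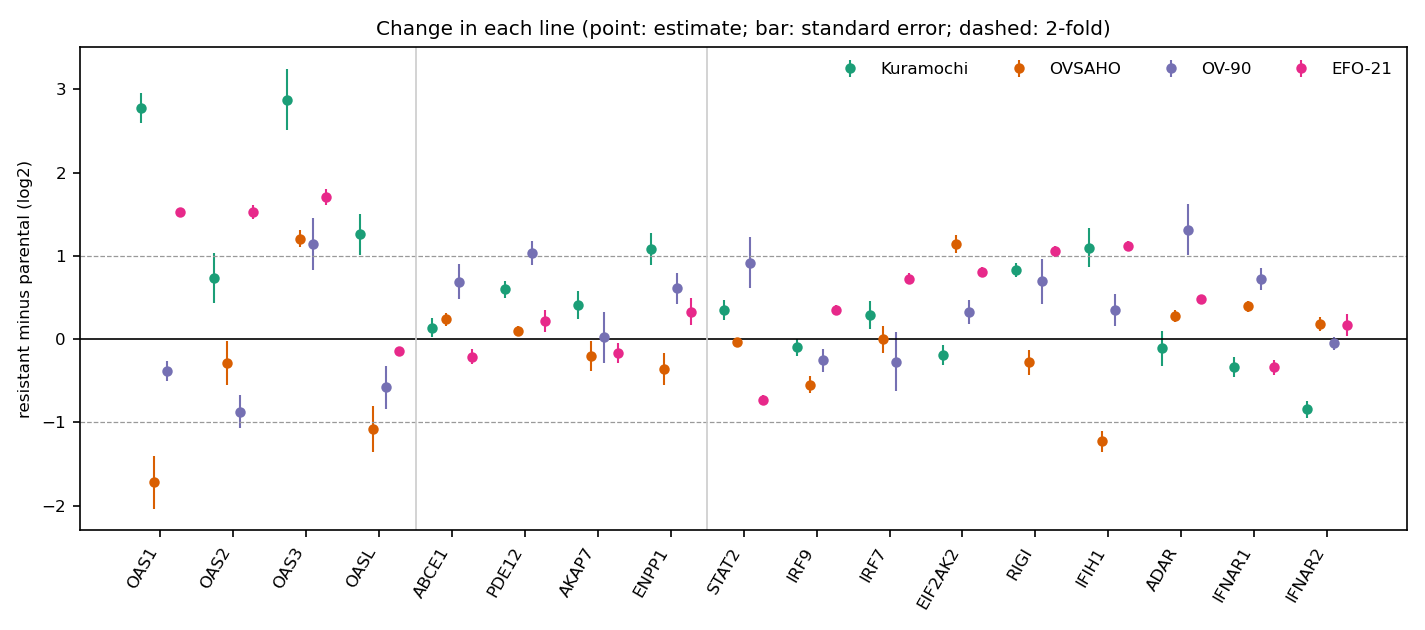
Resistant minus parental difference (log2, vertical axis) with its standard error for the 4 OAS genes, 4 pathway partners and 9 named signalling genes (horizontal axis), 1 colour per cell line, with dashed lines at 2-fold. The OAS genes spread from -1.72 (OAS1 in OVSAHO) to 2.88 (OAS3 in Kuramochi), while AKAP7 stays between -0.20 and 0.41.

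Of 10 interferon genes listed, 2 were in the table. IFNE, an epithelial type I interferon, fell by 4.13 in EFO-21 (from 7.46 to 3.33, adjusted p = 0.0017) and by 1.88 in Kuramochi (from 7.45 to 5.58, adjusted p = 0.000775). In OVSAHO it differed by 1.43 (adjusted p = 0.0633, and 1.97 with adjusted p = 0.00502 without library 7), and in OV-90 by -0.69 (adjusted p = 0.277). IFNA1 was variable, with differences between -0.79 and 0.65 and adjusted p from 0.456 to 0.865. The lowest difference was that of OVSAHO, with 1 parental and 3 resistant libraries low. The highest was that of OV-90, with 2 parental and 2 resistant libraries low, so neither is a measured fold. The other 8 ligands were not analysed here.

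Of 6 receptor genes 0 rose and 1 fell in EFO-21, and 0 passed the test in the other lines. At an unadjusted p under 0.05 by limma, 2 were higher and 3 lower in Kuramochi, 3 and 1 in OVSAHO, 2 and 0 in OV-90, and 2 and 3 in EFO-21. IFNAR1, a chain of the type I interferon receptor, differed by -0.33, 0.40, 0.72 and -0.34 in Kuramochi, OVSAHO, OV-90 and EFO-21, with adjusted p of 0.062, 0.00709, 0.0236 and 0.0233. IFNAR2, the other chain, was lower in Kuramochi by a difference of -0.84 (adjusted p = 0.000962), and its differences elsewhere were between -0.05 and 0.18. IFNGR1, a chain of the interferon-gamma receptor, fell by 1.15 in EFO-21 (adjusted p = 0.000106).

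Among 11 JAK-STAT and IRF genes, 2 rose and 1 fell in Kuramochi, 1 fell in EFO-21, and 0 passed the test in OVSAHO or OV-90. In OV-90, JAK2 (1.04) and STAT2 (1.37) were past 2-fold without library 3, and differed by 0.48 and 0.47 without library 2. IRF5, low in all 5 libraries, differed by 1.40 without library 2 and by -0.35 without library 3. At an unadjusted p under 0.05 by limma, 6 were higher and 1 lower in Kuramochi, 1 and 3 in OVSAHO, 2 and 2 in OV-90, and 6 and 3 in EFO-21. The median difference was 0.29 in Kuramochi, 0.00 in OVSAHO, 0.05 in OV-90 and 0.34 in EFO-21, beside -0.02, 0.00, -0.065 and 0.01 over all genes. The kinase JAK2 rose by 1.61 ± 0.15 in Kuramochi (from 4.63 to 6.24, adjusted p = 0.000355), and JAK1 fell by 1.02 ± 0.04 in EFO-21 (from 8.90 to 7.88, adjusted p = 4.37e-05), at the 2-fold limit without library 10.

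STAT2 and IRF9, parts of the complex that drives interferon response elements, had differences of opposite sign in EFO-21. STAT2 differed by -0.73 in EFO-21 (adjusted p = 0.000227), where OAS1, OAS2 and OAS3 were higher, and by 0.92 in OV-90 (adjusted p = 0.0727). Its OV-90 difference was 0.47 without library 2 and 1.37 without library 3. IRF9 differed by 0.35 in EFO-21 (adjusted p = 0.00495), -0.55 in OVSAHO (adjusted p = 0.0101), -0.10 in Kuramochi and -0.25 in OV-90. IRF7, a regulator induced by interferon, differed by 0.72 in EFO-21 (adjusted p = 0.000409) and was low in all 6 OVSAHO libraries. None of these differences reached 2-fold with all libraries.

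Of 7 negative regulators, 1 fell in Kuramochi, 1 rose and 1 fell in OV-90, and 0 passed the test in OVSAHO or EFO-21. The fall in OV-90 was that of USP18 (-1.0, adjusted p = 0.0326), which was under 2-fold without library 2 (-0.71) and did not pass without any 1 resistant library. By limma 0 were higher and 2 lower in Kuramochi at an unadjusted p under 0.05, 3 and 1 in OVSAHO, 2 and 2 in OV-90, and 3 and 3 in EFO-21. ADAR, which edits double-stranded RNA and is itself induced by interferon, rose by 1.31 ± 0.30 in OV-90 (from 6.96 to 8.28, adjusted p = 0.0339). That call was lost without library 2 (0.83, under 2-fold) or without any 1 resistant library (adjusted p from 0.0894 to 0.116). ADAR differed by 0.48, 0.28 and -0.11 in EFO-21, OVSAHO and Kuramochi, with adjusted p of 0.000367, 0.0334 and 0.705.

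The sensors of double-stranded RNA and related nucleotidyltransferases showed rises in EFO-21. Of 8 genes measured 3 rose there and 0 fell (6 and 2 had an unadjusted p under 0.05 by limma), with a median difference of 0.90. Without library 11, 1 rose. In Kuramochi and OVSAHO 1 rose and 1 fell, and in OV-90 1 fell. The unadjusted counts there were 3 higher and 1 lower, 3 and 2, and 1 and 1. IFIH1, which encodes the sensor MDA5, followed the signs of OAS1 in 3 lines: it rose in EFO-21 by 1.12 ± 0.06 (adjusted p = 6.25e-05), rose in Kuramochi by 1.10 ± 0.24 (adjusted p = 0.0103, and 0.91 without library 4), fell by 1.23 ± 0.12 in OVSAHO (adjusted p = 0.00134), and differed by 0.35 in OV-90 (adjusted p = 0.201). Its OV-90 difference was 0.22 without library 2 and 0.49 without library 3.

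RIGI, the sensor that OASL is known to act on, rose by 1.05 ± 0.06 in EFO-21 (adjusted p = 9.26e-05), at the 2-fold limit without library 11. It differed by 0.83, 0.69 and -0.28 in Kuramochi, OV-90 and OVSAHO, with adjusted p of 0.000465, 0.103 and 0.2. The OV-90 difference of RIGI was 0.39 without library 2 and 0.99 without library 3. EIF2AK2, which encodes the kinase PKR, rose by 1.15 ± 0.11 in OVSAHO (from 6.07 to 7.22, adjusted p = 0.00106), where OAS3 was higher and OAS1 lower. It differed by 0.80, 0.33 and -0.19 in EFO-21, OV-90 and Kuramochi, with adjusted p of 0.000219, 0.145 and 0.249. STING1, the adaptor downstream of cGAS, fell by 1.40 ± 0.13 in OV-90 (from 6.86 to 5.47, adjusted p = 0.0092), a call lost without any 1 resistant library (adjusted p from 0.0548 to 0.0589), and differed by 0.998 in EFO-21, just under 2-fold (adjusted p = 2.38e-05, and past it without library 12, 23 or 24).

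**Figure D3:**
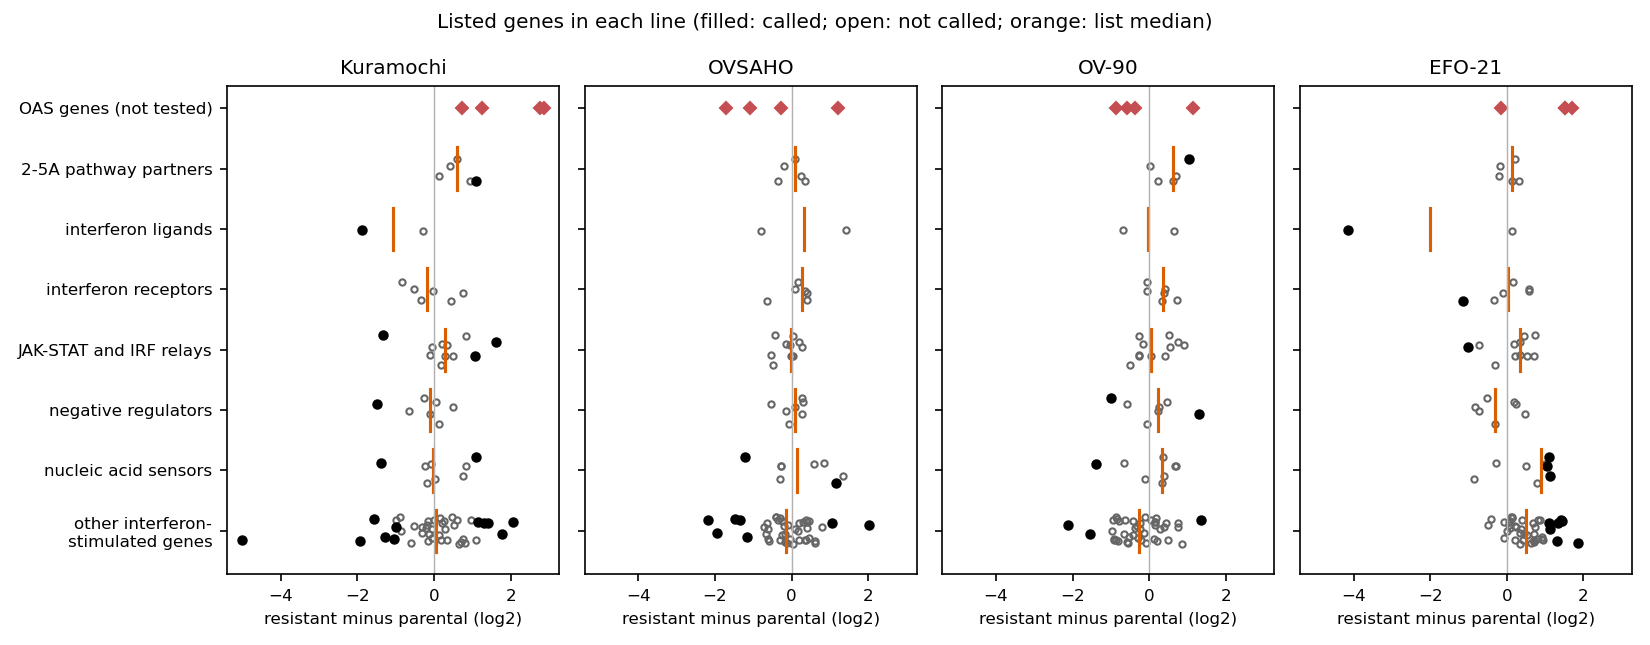
Resistant minus parental difference (log2, horizontal axis) of each listed gene in 4 lines, by list (rows; vertical scatter within a row only separates points), with filled points for genes that passed the test, open points for those that did not, an orange bar at the median of the list, and untested red diamonds for the OAS genes. In EFO-21 the median of the other interferon-stimulated genes is 0.49, and in OV-90 it is -0.28.

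Of 42 other interferon-stimulated genes, 7 rose and 0 fell in EFO-21 (28 and 2 had an unadjusted p under 0.05 by limma), 5 rose and 6 fell in Kuramochi, 2 rose and 5 fell in OVSAHO, and 1 rose and 2 fell in OV-90. The unadjusted counts in the last 3 lines were 13 higher and 10 lower, 9 and 16, and 3 and 12. The median difference was 0.49 in EFO-21, with 38 of the 42 above 0, and 0.06 in Kuramochi, -0.15 in OVSAHO and -0.28 in OV-90. Over all genes the same medians were 0.01, -0.02, 0.00 and -0.065. In EFO-21, where 3 of the 4 OAS genes were higher, the largest rises were those of IFI6 (1.86 ± 0.09, adjusted p = 4.78e-05), the antiviral GTPase MX1 (1.43 ± 0.06, adjusted p = 2.71e-05) and the nucleotide kinase CMPK2 (1.41 ± 0.18, adjusted p = 0.00147).

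In Kuramochi, the 5 rises and 6 falls among 42 interferon-stimulated genes stand beside 11.8% and 10.6% of all genes. TRIM22 rose by 2.07 ± 0.21 (from 1.72 to 3.79, adjusted p = 0.000496, with 2 parental libraries low) and IFI35 by 1.78 ± 0.17 (adjusted p = 0.000389). BST2, which encodes the virus-tethering protein tetherin, fell by 5.01 ± 0.17 (from 9.07 to 4.05, adjusted p = 1.09e-05), and IFI44L fell by 1.94 ± 0.24 (adjusted p = 0.00105).

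In OVSAHO, IFI16, a DNA sensor, rose by 2.02 ± 0.16 (from 3.49 to 5.51, adjusted p = 0.00066). IFI27 fell by 2.18 ± 0.15 (from 5.27 to 3.09, adjusted p = 0.000418) and MX2 by 1.94 ± 0.33 (adjusted p = 0.00738, with all 3 resistant libraries low). The exonuclease ISG20 fell by 1.47 ± 0.14 (adjusted p = 0.00105). ISG20 also fell in Kuramochi, with a difference of -1.575 (adjusted p = 0.00222). It differed by -0.852 in OV-90 (adjusted p = 0.0578) and by -0.416 in EFO-21 (adjusted p = 0.0171), both under 2-fold. In OV-90, IFI16 fell by 2.11 ± 0.13 (from 6.92 to 4.81, adjusted p = 0.00456) and IFI35 by 1.53 ± 0.27 (adjusted p = 0.0217), and DTX3L, a ubiquitin ligase, rose by 1.35 ± 0.32 (adjusted p = 0.0347). Over all 81 listed genes 3 rose and 4 fell in OV-90, against 2 and 3 without library 2, 8 and 11 without library 3, and 0 and 1 without any 1 resistant library. IFI35 and DTX3L no longer passed without any 1 resistant OV-90 library, with adjusted p from 0.0772 to 0.117. DTX3L also did not pass without library 2. Without library 3, BST2, IFI6, IFI27, IFI44, ISG20, LY6E and MX1 also fell in OV-90, and DDX60L, SAMD9 and TRIM25 rose.

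DDX60, an RNA helicase that promotes RIG-I signalling, was the only listed gene that passed the test with 1 sign in at least 3 lines. In Kuramochi it rose by 1.40 ± 0.16 (adjusted p = 0.000798), in EFO-21 by 1.34 ± 0.14 (adjusted p = 0.000675) and in OVSAHO by 1.05 ± 0.21 (from 2.85 to 3.90, adjusted p = 0.0128). It differed by 0.44 in OV-90 (adjusted p = 0.177), and there by 0.23 without library 2 and 0.64 without library 3. The OVSAHO rise was under 2-fold without library 7 (0.90, adjusted p = 0.0324) and did not pass without library 20 (0.98, adjusted p = 0.0501). Like OAS3, DDX60 had all resistant libraries above all parental libraries in each of the 4 lines. ISG20, on the same list as DDX60, had all resistant libraries below all parental ones in each of the 4 lines. Of all genes, 28.7%, 24.6%, 32.0% and 30.4% lay higher in Kuramochi, OVSAHO, OV-90 and EFO-21. The shares that lay lower were 30.5%, 23.7%, 37.1% and 29.3%. The share that lay to 1 side in all 4 lines was not counted.

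Genes that surround the family were examined to show whether the locus moved as a block. Within 500 kb of the OAS3 start, 11 genes other than OAS1, OAS2 and OAS3 were in the table. In Kuramochi 2 of them rose and 1 fell, in EFO-21 1 rose and 1 fell, in OV-90 1 fell, and in OVSAHO 0 reached 2-fold. In OVSAHO 6 of the 11 were lower at an adjusted p under 0.05 with no fold threshold. Among them were DRC10 (-0.63, adjusted p = 0.0145) and RASAL1 (-0.58, adjusted p = 0.000849), and the median difference was -0.45. By this rule 3507 of all 21658 genes were lower in OVSAHO. In EFO-21 RASAL1, DDX54, TPCN1 and DRC10 were lower by it, and PLBD2, SDSL and SDS higher. In Kuramochi RASAL1 and DRC10 were lower, and DTX1, SLC8B1 and SDSL higher. In OV-90 DRC10 was lower and PLBD2 higher. RASAL1, 198 kb downstream, fell by 2.17 in Kuramochi to low values in all 3 resistant libraries (adjusted p = 0.000513), beside OAS1 and OAS3 differences of 2.77 and 2.88. DRC10, 283 kb away, fell by 2.12 in EFO-21 (adjusted p = 0.000241) and by 1.27 in OV-90 (adjusted p = 0.0421, lost without library 2 or any 1 resistant library).

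Rises near OAS3 were those of DTX1 and SDSL in Kuramochi and SDS in EFO-21. DTX1, the nearest of these at 119 kb, rose by 1.09 (from 0.95 to 2.05, adjusted p = 0.0273), with 3 parental libraries and 1 resistant library low, and the call was lost without library 4, 6, 16 or 17. SDSL rose by 1.30 (adjusted p = 0.0108) and SDS by 1.39 (adjusted p = 0.0105). In OV-90 SDSL differed by -0.90 (adjusted p = 0.0504), and by -1.23 without library 3. Around OASL, of 15 other genes P2RX4 rose by 1.27 in Kuramochi (adjusted p = 0.000715) and CABP1 by 1.55 in EFO-21 (adjusted p = 0.00601). CABP1 differed by -1.87 in Kuramochi (adjusted p = 0.0637) and passed as lower without library 18 (-2.68, adjusted p = 0.0012). Of the 15 genes, 0 reached 2-fold with an adjusted p under 0.05 in OVSAHO or OV-90. With no fold threshold 3 were higher and 3 lower in OVSAHO, and 2 and 3 in OV-90.

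**Figure D4:**
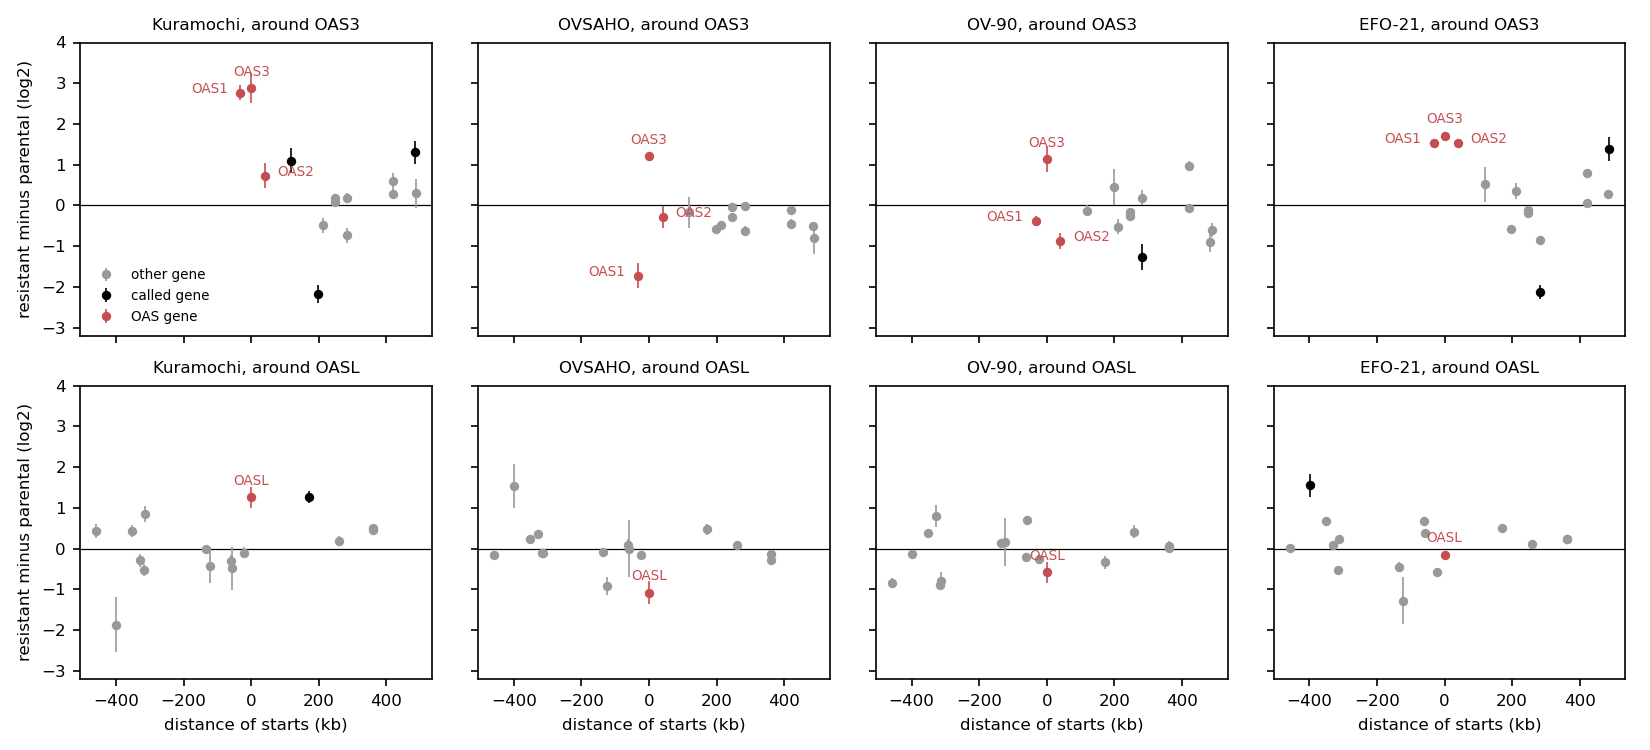
Resistant minus parental difference (log2, vertical axis) with its standard error for genes whose start lies within 500 kb of the OAS3 start (top row) or the OASL start (bottom row), against the distance between starts in kb (horizontal axis), 1 panel per line, with OAS genes in red, other genes that passed the test in black and the rest in grey. In EFO-21 OAS1, OAS2 and OAS3 lie together at 1.52 to 1.71, while in OVSAHO OAS3 lies at 1.21 and OAS1 at -1.72.

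Likeness between genes was described over the 23 libraries after the mean of the 2 group means of each line was subtracted. The libraries of a line share that centring, and much of the likeness reflects the same resistant and parental difference that chose the family, so no p is given. Between members, Pearson r was 0.72 for OAS1 with OASL, 0.675 for OAS1 with OAS2, 0.558 for OAS1 with OAS3, 0.442 for OAS2 with OAS3, 0.275 for OAS2 with OASL and 0.276 for OAS3 with OASL. The genes named below are those with the highest r among genes with a mean above the median of all genes.

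The 5 genes most like OAS3 were CPT1A (r = 0.985), LIMCH1 (0.978), RRAS2P1 (0.976), SMAD3 (0.973) and SEL1L3 (0.973), none of them on a list here. RRAS2P1 is a pseudogene, whose reads may be shared with its parent gene. SEL1L3 differed by 1.85 in Kuramochi, 1.41 in EFO-21, 1.01 in OVSAHO and 0.88 in OV-90, given with no test because its likeness rests on this difference. The OV-90 value was 1.19 without library 3 and below 0.88 without library 2, the SD of the 2 parental libraries being 0.44. LFNG (0.966), PLEKHM1 (0.953), SLC10A3 (0.949), LAP3 (0.944) and KRABD5 (0.943) were most like OAS1.

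RHOBTB2 (0.899), DNASE2 (0.894), CDK5RAP3 (0.890), ARSA (0.878) and the gene with ID 10638, which was given no symbol (0.874), were most like OAS2, with low libraries of OAS2 included. CDC25B (0.881), ZMIZ2 (0.871), PITRM1 (0.862), MIEF2 (0.855) and GBP2 (0.849) were most like OASL. GBP2, an interferon-induced GTPase that was on no list, differed by 2.00 ± 0.10 in Kuramochi and by -2.16, -1.09 and -1.02 in OVSAHO, OV-90 and EFO-21, likewise with no test. With Spearman in place of Pearson correlation, 3 of the 5 genes were shared for each OAS gene.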

How the data were processed

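The 23 libraries were prepared from total RNA with a stranded mRNA kit. The authors aligned reads to GRCh37/hg19 and rolled exon values up to genes, by a robust linear model for 16448 genes and as a mean of log2 exon values for 5210. The deposited log2 values were quantile normalized by the authors and hold no counts, so counting error is unknown. How reads shared by related genes were assigned is not given in the sources used here. NCBI Gene IDs were matched to RefSeq symbols (20745 of 21658, 95.8%).

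Members and lists were chosen with earlier results of these data known. Each line was fitted alone with limma 3.58.1 (R 4.3.3, eBayes with a mean-variance trend, no filter), and the lines of 1 state in a fit of 4 group means. Two-sided p-values were adjusted by Benjamini-Hochberg over all genes, and for pairs of lines also over 6 pairs. With at most 3 libraries a group, an exact permutation test cannot give a p below 0.1. The code was tested on simulated data. Named by rule were the members, 2-5A partners and signalling genes, listed genes that passed alike in at least 3 lines or were among the 3 largest rises or falls of a line, neighbours that passed, and the 5 genes most like each member. IFNA1, and the values given for SEL1L3 and GBP2, were picked out once values were known. Some genes that the rule or the lists take in are not reported here. Alternatives were 1 fit of all libraries, no trend, a filter at the 25th percentile of gene means, recentred medians, thresholds of 1.5-fold and of no fold, and leaving out each library.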

Additional observations from a re-analysis of the deposited data

Results flagged for a closer look

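The resistant libraries of some genes all lay above the parental libraries in 1 line and all below them in another. The values that follow are the gap on the log2 scale between the highest and the lowest line difference, over the lines in which the groups did not overlap, and none of these gaps was tested. Not every gene that met this condition is listed. Among the OAS genes it was 4.49 for OAS1 (from -1.72 in OVSAHO to 2.77 in Kuramochi), 2.39 for OAS2 (from -0.87 in OV-90 to 1.52 in EFO-21) and 2.34 for OASL (from -1.08 in OVSAHO to 1.26 in Kuramochi). OASL was low in all 3 resistant OVSAHO libraries and in 1 parental one, so its gap is not a measured fold. OAS1, OAS2 and OASL were chosen with these values known.

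Among signalling genes and sensors it was 5.56 for IFNE, 2.4 for STING1, 2.34 for IFIH1, 1.65 for STAT2, 1.59 for IFNGR1, 1.58 for JAK1, 1.06 for IFNAR1 and 0.90 for IRF9. IFNE ran from -4.13 in EFO-21 to 1.43 in OVSAHO, the second not passing the test. Among genes left out of this list, IRF5 ran from -1.34 in Kuramochi to 0.73 in EFO-21. PTPN6 ran from -1.48 to 0.24 in the same 2 lines.

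Among interferon-stimulated genes it was 5.22 for BST2, 4.13 for IFI16, 3.32 for IFI35, 3.26 for IFI44L, 3.04 for IFI27, 2.46 for IFI6, 2.27 for MX2 and 2.22 for MX1. IFI16 ran from -2.11 in OV-90 to 2.02 in OVSAHO. MX2 was low in all 6 EFO-21 libraries, the line of its highest difference.

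Among neighbours of OAS3 and OASL it was 2.2 for SDSL, 2.19 for SDS, 1.69 for CABP1 and 1.6 for P2RX4. SDS and CABP1 were low in most libraries of the lines in which they lay lower.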

How the results depend on the processing

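Differences of the 4 OAS genes moved by less than the spread between libraries in 1 fit of all 23 libraries, without the trend, with recentred medians and with a filter at the 25th percentile of gene means, wherever the gene passed that filter. OAS2 and OASL did not pass it. Leaving out 1 library at a time moved the OV-90 values beyond that spread for OAS1 (from -0.517 to -0.248) and OAS3 (from 0.644 to 1.631), and no sign turned. With 1 parental OV-90 library left, that sample is assumed to vary like the resistant group. No paired analysis was possible because the columns carry no replicate numbers.

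Counts depended on the thresholds by construction. At 1.5-fold, 3934 genes rose and 3753 fell in Kuramochi, 1711 and 1458 in OVSAHO, 3310 and 2885 in OV-90, and 2845 and 2749 in EFO-21. With no fold threshold these were 5111 and 5047, 3696 and 3507, 3917 and 3874, and 5405 and 5073. With the filter, which tests fewer genes, they were 1573 and 1434 in Kuramochi, 472 and 402 in OVSAHO, and 751 and 910 in EFO-21. Without 1 library, between 181 and 3396 genes rose and between 128 and 2579 fell in OV-90.

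Of the listed genes, at 1.5-fold 20 rose in Kuramochi, 11 fell in OVSAHO, 6 rose and 10 fell in OV-90, and 27 rose and 6 fell in EFO-21. With no fold threshold 23 rose and 16 fell in Kuramochi, 18 and 20 in OVSAHO, 8 and 11 in OV-90, and 42 and 13 in EFO-21. In OVSAHO 5 rose with 1 fit of all libraries and 5 with the filter, the cause of which was not tested. Without 1 library, between 0 and 8 rose and between 1 and 11 fell in OV-90.

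With the filter, pairs of lines were not tested for OAS2 and OASL. Calls among the OAS3 neighbours numbered 12 at 1.5-fold and 20 with no fold threshold. Among the OASL neighbours they numbered 4 in 1 fit of all libraries, 1 with the filter, 10 at 1.5-fold, 27 with no fold threshold, and between 2 and 5 without 1 library. The motif GAAANGAAA, added after the sequences were read, gave 1 match in OAS1 and 1 in OAS3.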
